A study of Mus musculus with 5 samples.

Results

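The ephrin, semaphorin and plexin guidance genes are the 51 mouse protein-coding genes whose RefSeq symbol is Efna, Efnb, Epha, Ephb, Sema, Plxna, Plxnb, Plxnc or Plxnd followed by a digit. They were 8 ephrins, 14 Eph receptors, 20 semaphorins and 9 plexins, out of 21787 protein-coding genes. The question asked of them was where open chromatin lay at and around these genes while mesoderm became blood. Open chromatin was read from DNaseI hypersensitive sites (DHSs), stretches that the nuclease DNase I can cut.

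All cells were differentiated in vitro from mouse embryonic stem (ES) cells of strain 129 whose line carries a GFP reporter of Brachyury (Bry), a gene of early mesoderm. Populations were sorted at 5 stages. Mesoderm (MES) was Bry:GFP+ and Flk1-, and hemangioblasts (HB), which precede vessel and blood cells, were Bry:GFP+ and Flk1+. Hemogenic endothelium (HE), the vessel-like cells from which blood arises, was sorted as Tie2+, cKit+ and CD41-. Hematopoietic progenitors (HP) were CD41+, and macrophages (MAC) were CD11b+ cells grown from CD41+ cells. Each stage had 1 list of sites, so no spread between replicates could be given, no difference between stages was tested, and shares of genes carry a Wilson 95% interval that covers counting error only. The lists hold positions and no read counts. The numbers of aligned reads that the study tabulates elsewhere were not used here, so no value is set against depth, and a missing site means that none was listed.

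Ephrins are ligands held in the membrane that bind Eph receptor tyrosine kinases on neighbouring cells, and signals run in both cells. Semaphorins are secreted or membrane-bound ligands that bind plexins, in part together with neuropilins, and plexins act on the small GTPases that shape the cytoskeleton. Both systems were first known from growing axons and are also used by vessels and blood cells: ephrin-B2 marks arteries and EphB4 veins, Sema3e acts on PlexinD1 in vessels, and Sema4d and Sema7a act on cells of the immune system.

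Promoters of 3 genes are shown because they stood for 3 outcomes of the site lists: Efnb2 with a promoter site in all 5 stages, Ephb4 with one in MES, HB, HE and HP, and Plxnc1 with no site over its start in any stage. Each line gives the 250 bases before the RefSeq start on the strand of the gene, and capitals mark CpG dinucleotides. Positions are those of mm10 (GRCm38): Efnb2 chr8:8661243-8661492 on the minus strand, Ephb4 chr5:137349859-137350108 on the plus strand, and Plxnc1 chr10:94944846-94945095 on the minus strand. They held 27, 12 and 22 CpG dinucleotides.
Efnb2: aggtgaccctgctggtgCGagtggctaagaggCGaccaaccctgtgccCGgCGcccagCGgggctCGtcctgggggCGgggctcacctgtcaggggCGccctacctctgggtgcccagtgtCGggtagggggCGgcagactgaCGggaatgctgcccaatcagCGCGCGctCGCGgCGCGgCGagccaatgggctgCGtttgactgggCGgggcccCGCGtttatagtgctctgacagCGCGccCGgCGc
Ephb4: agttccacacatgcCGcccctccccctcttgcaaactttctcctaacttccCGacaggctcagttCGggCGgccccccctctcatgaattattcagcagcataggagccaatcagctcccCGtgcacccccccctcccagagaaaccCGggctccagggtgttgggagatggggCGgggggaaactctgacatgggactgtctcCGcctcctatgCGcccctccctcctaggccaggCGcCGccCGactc
Plxnc1: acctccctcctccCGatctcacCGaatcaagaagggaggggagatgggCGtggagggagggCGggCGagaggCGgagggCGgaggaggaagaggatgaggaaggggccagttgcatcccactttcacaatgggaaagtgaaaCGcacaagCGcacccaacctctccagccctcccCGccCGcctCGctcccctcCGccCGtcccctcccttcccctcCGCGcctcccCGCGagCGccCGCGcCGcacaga

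Distal regions of 5 genes are shown next as examples, each as the central 300 bases on the plus strand of mm10. Those in MAC only were picked, among several at their genes, by the patterns matched in their middle 500 bp. PU.1 was among these patterns each time, so their matches are not a finding. Those of Efnb2 (chr8:8623534-8623833, intron, 23.3 kb from the nearest start, HE and HP), Epha2 (chr4:141287162-141287461, intergenic, -13.9 kb, all 5 stages) and Ephb2 (chr4:136841063-136841362, intergenic, -4.89 kb, MES, HB and HE) belong to the ephrin system. Negative distances are upstream. Those of Plxnc1 at 12.7 kb (chr10:94931971-94932270, intron, HE, HP and MAC), at 25.2 kb (chr10:94919531-94919830, intron, MAC only) and at -16.5 kb (chr10:94961381-94961680, intergenic, MAC only), and that of Plxnd1 at -18.7 kb (chr6:116013850-116014149, intergenic, MAC only) belong to plexins. Capitals mark matches on either strand to the short patterns described with the motif counts: GATA, RUNX, TEAD, ETS, PU.1, AP1, SOX, E-box and TCF.
Efnb2, 23.3 kb: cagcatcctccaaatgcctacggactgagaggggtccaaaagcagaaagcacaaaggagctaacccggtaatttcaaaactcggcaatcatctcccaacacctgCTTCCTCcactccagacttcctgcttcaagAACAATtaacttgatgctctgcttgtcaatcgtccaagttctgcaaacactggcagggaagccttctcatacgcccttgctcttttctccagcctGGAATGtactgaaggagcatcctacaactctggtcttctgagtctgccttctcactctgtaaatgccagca
Epha2, -13.9 kb: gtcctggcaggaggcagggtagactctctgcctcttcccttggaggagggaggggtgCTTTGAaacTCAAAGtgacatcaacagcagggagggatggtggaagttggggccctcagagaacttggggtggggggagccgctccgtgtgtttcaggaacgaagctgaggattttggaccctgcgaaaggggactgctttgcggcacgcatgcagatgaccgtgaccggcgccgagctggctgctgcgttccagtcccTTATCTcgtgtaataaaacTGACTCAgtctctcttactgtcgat
Ephb2, -4.89 kb: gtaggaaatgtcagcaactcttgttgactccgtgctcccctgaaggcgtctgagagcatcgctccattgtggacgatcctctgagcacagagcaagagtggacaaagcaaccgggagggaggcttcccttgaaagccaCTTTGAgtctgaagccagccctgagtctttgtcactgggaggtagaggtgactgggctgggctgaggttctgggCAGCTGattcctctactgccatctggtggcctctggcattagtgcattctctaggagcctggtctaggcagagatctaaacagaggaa
Plxnc1, 12.7 kb: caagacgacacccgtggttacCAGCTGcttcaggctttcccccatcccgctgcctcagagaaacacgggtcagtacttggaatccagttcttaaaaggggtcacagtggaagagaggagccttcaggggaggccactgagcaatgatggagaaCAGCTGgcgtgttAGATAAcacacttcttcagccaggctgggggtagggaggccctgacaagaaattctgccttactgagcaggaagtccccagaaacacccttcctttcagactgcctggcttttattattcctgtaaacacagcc
Plxnc1, 25.2 kb: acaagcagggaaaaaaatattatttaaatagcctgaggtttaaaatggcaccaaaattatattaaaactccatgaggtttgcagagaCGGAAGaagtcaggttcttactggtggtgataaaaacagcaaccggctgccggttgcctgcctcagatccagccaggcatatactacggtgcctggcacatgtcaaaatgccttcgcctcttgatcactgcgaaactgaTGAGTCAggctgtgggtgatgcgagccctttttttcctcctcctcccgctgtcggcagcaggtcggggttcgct
Plxnc1, -16.5 kb: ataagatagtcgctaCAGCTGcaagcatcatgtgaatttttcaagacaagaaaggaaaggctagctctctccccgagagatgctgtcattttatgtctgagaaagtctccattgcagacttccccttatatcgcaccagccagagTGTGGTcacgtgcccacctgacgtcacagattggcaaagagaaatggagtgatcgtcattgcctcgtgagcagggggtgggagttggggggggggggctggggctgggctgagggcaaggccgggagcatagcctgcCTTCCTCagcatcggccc
Plxnd1, -18.7 kb: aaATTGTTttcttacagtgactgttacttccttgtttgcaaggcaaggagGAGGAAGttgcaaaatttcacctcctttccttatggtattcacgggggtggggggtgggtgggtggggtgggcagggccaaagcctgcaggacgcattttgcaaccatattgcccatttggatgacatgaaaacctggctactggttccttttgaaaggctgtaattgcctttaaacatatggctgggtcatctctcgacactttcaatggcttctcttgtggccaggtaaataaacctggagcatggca

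A gene had a promoter site in a stage if a listed site came within 1 kb of any of its RefSeq start sites. The share of guidance genes with such a site lay above that of protein-coding genes at large in MES, HB and HE, near it in HP and below it in MAC, where the interval of the guidance genes still held the share of all genes. In MES, 39 of 51 had one (76.5%, interval 63.2 to 86.0), against 55.5% of all genes. In HB the count was again 39 of 51, against 57.1%. In HE it was 42 of 51 (82.4%, interval 69.7 to 90.4), against 59.8%. In HP it fell to 25 (49.0%, interval 35.9 to 62.3), against 48.6%, and in MAC to 18 (35.3%, interval 23.6 to 49.0), against 48.7%. Between HE and MAC the count of guidance genes thus dropped from 42 to 18, while the share of all genes went from 59.8% to 48.7%. These genes have more annotated starts than others, with a median of 3 and a mean of 3.71 per gene, against 2 and 2.69 over all genes, so more places could count as a promoter. With starts of curated mRNAs only the counts were 38, 38, 41, 25 and 16, against 53.9%, 55.5%, 58.1%, 47.2% and 46.8% of all genes. The excess in MES depended on narrow sites: when sites narrower than the median of their list were left out, 41.2% of guidance genes and 42.9% of all genes had a promoter site there. In HB and HE the guidance genes then lay above all genes by a smaller margin (54.9% against 48.1% and 62.7% against 51.9%), for which no interval was computed. In HP the same setting gave 25.5% against 37.7%, and so ended the likeness there. HE had the highest count with limits of 1 and 2 kb, but not under each setting: with a limit of 250 bp HB had 38 and HE 37, by the middle of the site MES, HB and HE had 38 each, and with lists cut to equal length HB had 35 and HE 32. The lists themselves held between 17734 sites (HP) and 37456 sites (MAC), with median widths from 600 bp (MAC) to 1200 bp (HE). A site that is missing from a sorted population may reflect fewer cells with open chromatin or less cutting in each cell, which cannot be told apart.

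**Figure D1:**
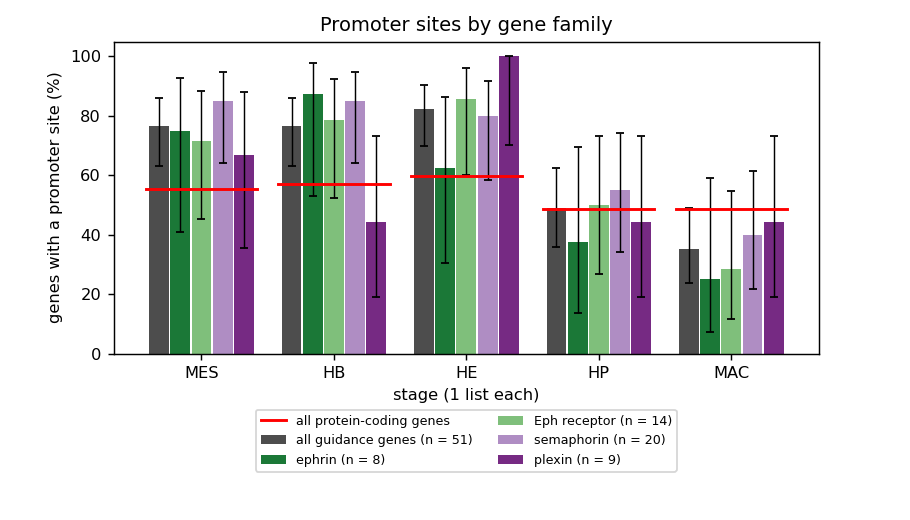
Share of genes with a DNaseI site within 1 kb of a RefSeq start (%, vertical axis) at each stage, for all guidance genes and for each family, with red lines for all protein-coding genes and Wilson 95% intervals as error bars. Guidance genes lie above the red line in MES, HB and HE (76.5%, 76.5% and 82.4%) and below it in MAC (35.3%). All 9 plexins have a site in HE at this limit. Those of Plxna1, Plxna3, Plxna4, Plxnb1 and Plxnb3 are narrower than the HE list median of 1200 bp, and a limit of 250 bp leaves out Plxnc1 and Plxna4.

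Of the 22 ephrins and Eph receptors, 16, 18, 17, 10 and 6 had a promoter site from MES to MAC. Of the 29 semaphorins and plexins, 23, 21, 25, 15 and 12 had one. In MAC this was 27.3% of the ephrin system and 41.4% of the semaphorin system, and both lay below the 48.7% of all genes. The difference between the systems was not tested, and in HB the ephrin system had the higher share (81.8% against 72.4%).

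By pattern over the 5 stages, 14 guidance genes had a promoter site in every stage (27.5%), against 42.0% of all genes. They were Efnb1, Efnb2, Epha7, Ephb1, Ephb3, Sema3f, Sema4b, Sema4c, Sema4d, Sema6a, Sema6c, Plxna2, Plxnb2 and Plxnd1. A further 20 genes (39.2%) had one in MES, HB or HE and in neither HP nor MAC, against 11.8% of all genes. Another 10 (19.6%) had one from MES through HP and not in MAC, against 3.81%. No promoter site was listed at any stage for 3 genes (5.88%), Epha8, Ephb2 and Sema4a, against 34.3% of all genes. Sites in HE only were listed for 4 genes (7.84%), against 3.02%, and sites in MAC only for 0 genes, against 1.72%. The counts at both ends depended on the setting. Genes with a site in every stage fell to 6 when sites narrower than the median of their list were left out and to 8 with lists cut to equal length, and genes with none rose to 8 and 7, or to 6 with a limit of 250 bp or by the middle of the site.

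**Figure D2:**
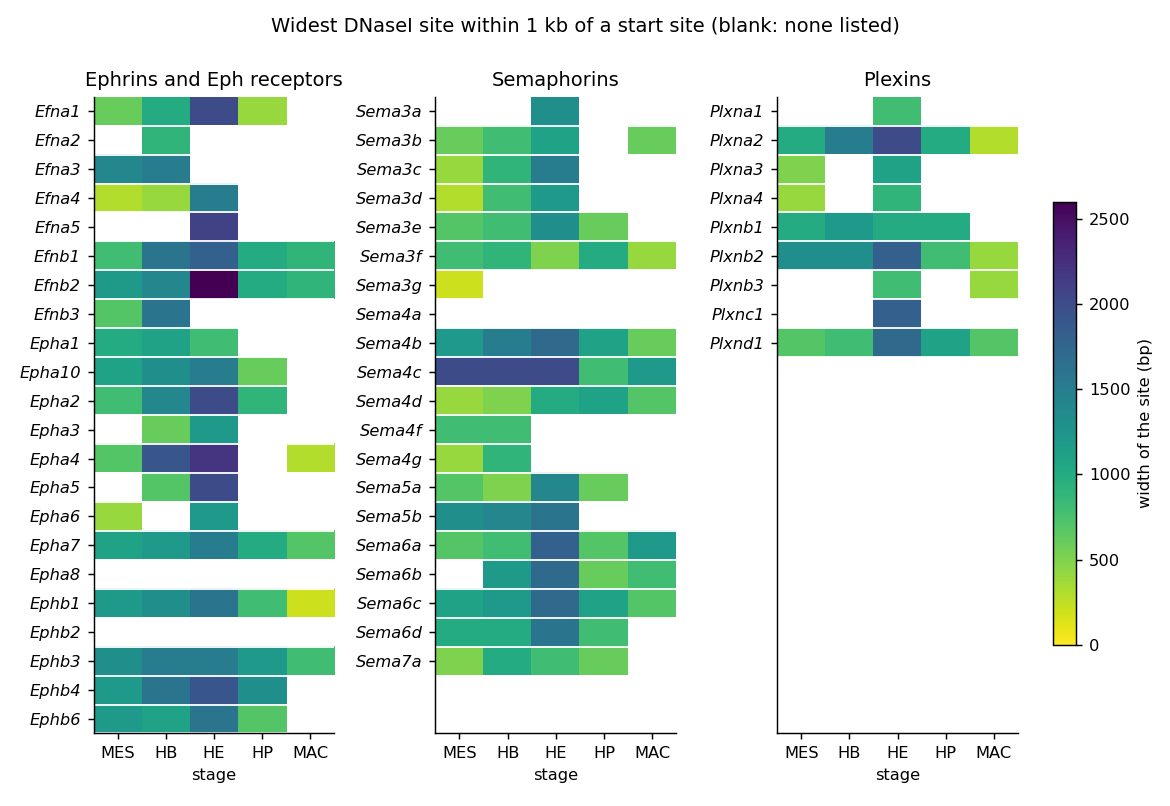
Width in bp (colour) of the widest DNaseI site within 1 kb of a RefSeq start for each guidance gene (rows) at each stage (columns), with blanks where none was listed. At the limit of 1 kb drawn here, HE holds the most filled cells (42 of 51 genes) and MAC the fewest (18), though HE is not highest at 250 bp (37, HB 38) or with lists of equal length (32, HB 35), and the 14 genes filled in all 5 columns include Efnb1, Efnb2 and Plxnd1.

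Among the ephrins, the class B ligands, which span the membrane, included the genes with the longest-lasting sites. Efnb2, the arterial ephrin, had a site over a start (the most upstream is at chromosome 8, position 8661242) at every stage, with widths of 1200, 1400, 2600, 1000 and 900 bp in the order MES, HB, HE, HP and MAC. The HE site was the widest promoter site listed for any guidance gene. Efnb1 was also listed at all 5 stages, with its widest site at 800, 1600, 1800, 1000 and 900 bp. Efnb3 had sites of 700 and 1600 bp in MES and HB and none afterwards. The class A ligands, which are held by a lipid anchor, had no promoter site in MAC. Efna1, the ligand best known for binding EphA2, had sites of 600, 1000, 2000 and 400 bp in MES, HB, HE and HP. Efna2 had 1 site, of 900 bp in HB, and Efna3 had sites in MES and HB only, with an HE site 1041 bp from a start, just beyond the limit. Efna4 had sites of 300, 400 and 1500 bp in MES, HB and HE. The HE site of Efna4 ended 201 bp from the start, and in HP the nearest site lay 1.20 kb away. Efna5 counted as listed in HE only, at 607 bp from a start, but sites lay at 1375 bp in MES, 1112 bp in HB and 1075 bp in HP, just beyond the limit of 1 kb. Overall 6, 7, 5, 3 and 2 of the 8 ephrins had a promoter site from MES to MAC.

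Among the Eph receptors, 10, 11, 12, 7 and 4 of 14 had a promoter site from MES to MAC. Ephb4, the venous receptor of ephrin-B2, had sites of 1200, 1600, 1900 and 1300 bp over its start (chromosome 5, position 137350109) in MES, HB, HE and HP. In MAC no site was listed at Ephb4, and the nearest one lay 11.5 kb away. Epha2 had sites of 800, 1400, 2000 and 900 bp over its upstream start at the same stages, and from HB to HP a start further into the gene carried a site too, of 700, 1600 and 700 bp. In MAC the nearest site to Epha2 lay 13.9 kb away. Ephb6, a receptor without kinase activity, and Epha10 were likewise listed from MES to HP. The Epha10 sites lay within 1 kb of the start of Maneal as well, so they cannot be given to either gene alone. Ephb3 was listed at every stage, with 1300, 1500, 1500, 1200 and 800 bp, and so was Epha7 with 1100, 1200, 1500, 1000 and 700 bp. Ephb1 kept a site in MAC that was 200 bp wide and 8 bp from the start, against 1600 bp in HE. Epha3 and Epha5 were listed in HB and HE only, the Epha5 sites also within 1 kb of the start of Gm42163 and so not of 1 gene alone, and Epha6 in MES and HE only. Epha4 was listed in MES, HB, HE and MAC, with a site of 300 bp in MAC and one 1052 bp from a start in HP. Ephb2 and Epha8 had no promoter site, and the sites nearest to Ephb2 lay 4.69 kb away in MES, 4.59 kb in HB and 4.38 kb in HE, but 27.1 kb in HP and 49.4 kb in MAC.

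Among the semaphorins, 17, 17, 16, 11 and 8 of 20 had a promoter site from MES to MAC. Of the secreted class 3 members, Sema3c and Sema3d were listed in MES, HB and HE, with widths that were smallest in MES (400 and 300 bp) and largest in HE (1500 and 1200 bp). Sema3e, the ligand of PlexinD1, was listed from MES to HP with 700, 800, 1300 and 600 bp. Sema3f was listed at every stage, with 800, 900, 500, 1000 and 400 bp. Sema3a had 1 site, of 1300 bp in HE, and Sema3g had 1, of 200 bp in MES. In HE a site lay 1416 bp from the start of Sema3g. The Sema3b sites in MES, HB, HE and MAC lay 553 to 853 bp from its nearest start and never over one. Class 4 members, which span the membrane, made up 3 of the semaphorins listed at every stage: Sema4b, Sema4c and Sema4d. The Sema4d sites lay at different starts, over one start in MES and over another in HB, HE and MAC. The HP site ended 936 bp from yet another start, so a limit of 250 bp leaves no HP promoter site for this gene. Sema4f and Sema4g were listed in MES and HB only. Sema4a had no promoter site, and its nearest site lay 5.80 to 5.95 kb away in MES, HB, HE and HP and 3.23 kb away in MAC. Sema6d, Sema5a and Sema7a, the last a ligand anchored by lipid that binds PlexinC1, were listed from MES to HP. Sema7a had 500, 1000, 800 and 600 bp at these stages. Sema6a, Sema6b and Sema6c were listed in MAC, with 1200, 800 and 700 bp.

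At the limit of 1 kb the plexins were the family in which HE stood apart from its neighbours, with 6, 4, 9, 4 and 4 of 9 listed from MES to MAC. The count in HE rested on narrow sites and on that limit. The widest HE sites of Plxna1, Plxna3, Plxna4, Plxnb1 and Plxnb3 were 800, 1100, 900, 1000 and 800 bp, below the HE list median of 1200 bp. A limit of 250 bp leaves out the HE sites of Plxnc1 and Plxna4. Plxnd1 was listed at all stages, with 700, 800, 1700, 1100 and 700 bp. Its HE site lay upstream and ended 70 bp from the nearest start, while the sites of the other 4 stages spanned the start at chromosome 6, position 115995005. Plxna2 had 1000, 1500, 2000, 1000 and 300 bp. Plxnb2 had sites at 3 starts in MES, HB and HE, at 2 in HP and at 1 in MAC. Plxnb1, a receptor of Sema4d, was listed from MES to HP, with 1000, 1200, 1000 and 1000 bp. Plxna1 and Plxnc1 were listed in HE only, Plxna3 and Plxna4 in MES and HE, and Plxnb3 in HE and MAC. Several HE sites lay beside the start rather than over it: the gap was 196 bp for Plxna1, 335 bp for Plxnc1 and 684 bp for Plxna4. At Plxnc1 an HB site ended 1119 bp from the start, overlapping the HE site.

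Between consecutive stages the guidance genes changed more often than all genes at most steps. From MES to HB, 4 of 39 promoters lost their site (10.3%), against 3.76% of all genes, and 4 of 12 gained one (33.3%), against 8.25%. From HB to HE, 5 of 39 lost it (12.8%, with Efna3 by a site just past 1 kb), against 5.21%, and 8 of 12 gained it (66.7%), against 13.3%. The 8 were Efna5, Epha6, Sema3a, Plxna1, Plxna3, Plxna4, Plxnb3 and Plxnc1, of which Epha6, Sema3a, Plxna3 and Plxnb3 had an HE site over a start. Efna5 and Plxnc1 already had an HB site between 1 and 2 kb from a start. From HE to HP, 17 of 42 lost it (40.5%), against 20.1%, and 0 of 9 gained it, against 2.13%. The 17 were Efna4, Efna5, Epha1, Epha3, Epha4, Epha5, Epha6, Sema3a, Sema3b, Sema3c, Sema3d, Sema5b, Plxna1, Plxna3, Plxna4, Plxnb3 and Plxnc1. With lists cut to equal length the losses at this step became 11 and the gains 4. Without the narrower sites losses were 22 and gains 3, and with a limit of 250 bp losses were 14 and gains 1. For 3 of the 17, Efna4, Efna5 and Epha4, an HP site lay between 1 and 2 kb from a start. From HP to MAC, 10 of 25 lost it (40.0%), against 10.7%, and 3 of 26 gained it (11.5%), against 10.1%. The 10 were Efna1, Epha2, Epha10, Ephb4, Ephb6, Sema3e, Sema5a, Sema6d, Sema7a and Plxnb1, and the 3 were Epha4, Sema3b and Plxnb3. Epha4 already had an HP site 1052 bp from a start.

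At these promoters HE sites were the widest by median, as they were among all promoter sites. They lay off the start more often than those of all genes with a site. The median width of promoter sites of guidance genes was 700, 1000, 1500, 800 and 700 bp from MES to MAC, and that of all promoter sites was 1000, 1200, 1600, 1100 and 800 bp. From MES to MAC, the site lay over a start for 34 of 39, 38 of 39, 33 of 42, 24 of 25 and 16 of 18 genes. In HE this was 78.6%, against 92.2% of all genes with a site. When the middle of a site had to come within 1 kb, HE counted 38 genes instead of 42, against 57.9% of all genes. With a limit of 2 kb, 8 further pairs of gene and stage gained a site, and Plxna1 and Sema3a were the 2 genes left with sites in HE only. Among the 14 genes listed throughout, the median of the widest site was 1100, 1300, 1700, 1000 and 700 bp, highest in HE and lowest in MAC, as were the median widths of the whole lists.

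Ligands and receptors known to pair were not always listed at the same stages. Efnb2 had a promoter site in MAC and its receptor gene Ephb4 did not, whereas Efna1 and Epha2 had the same stages, MES to HP. The receptor gene Plxnd1 was listed in MAC while Sema3e, a ligand of PlexinD1, was not. For Sema4d the order was turned, with the ligand gene listed in MAC and its receptor gene Plxnb1 not. Sema7a was listed from MES to HP, and its receptor gene Plxnc1 only in HE. Sema6d was listed from MES to HP as well, and Plxna1, whose product binds it, only in HE. A site at a promoter does not show that the gene is transcribed, and RNA levels were not analysed here.

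The sequence of the promoters was compared with these counts. RefSeq promoter sequences (GRCm38.p6, 250 bases before to 50 after a start) were found for 45 of the 51 genes, and for 17492 of all genes. Efnb3, Sema3b, Sema3f, Sema6a, Plxna1 and Plxna4 had none. A gene was called CpG-rich if such a promoter held at least 50% G and C and its CpG count was no less than 0.6 of that expected from its bases. By this measure 29 of 45 guidance genes were CpG-rich (64.4%), against 48.3% of all genes. Of the 29, 21, 25, 24, 18 and 11 had a promoter site from MES to MAC, which is 72.4%, 86.2%, 82.8%, 62.1% and 37.9%. The shares for all CpG-rich genes were 88.2%, 90.1%, 91.2%, 80.0% and 77.8%. Of the 16 guidance genes that were not CpG-rich, 13, 10, 13, 5 and 4 had one, which is 81.2%, 62.5%, 81.2%, 31.2% and 25.0%, against 26.1%, 27.1%, 30.8%, 21.1% and 23.0% of all such genes. The lower share in MAC was thus found among CpG-rich promoters, and the higher share at early stages among the others, which include Ephb4, Epha2, Efnb1 and Sema3e. Several of these lie not far below the limit of 0.6, with 0.484 for Ephb4, 0.527 for Efnb1 and 0.579 for Sema3e, and no other limit was tried. The CpG-rich promoters of Plxnc1, Epha8, Ephb2 and Efna5 had no site over the 300 bases in any stage.

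Distal sites were those over 1 kb from every start and up to 100 kb away from one, given to the nearest protein-coding gene. From MES to MAC the guidance genes had 51, 72, 86, 27 and 81. With lists cut to equal length these became 38, 40, 30, 27 and 28, with HB highest, and without the sites narrower than the median of their list 15, 24, 31, 7 and 32. The first setting changes length and width together. At least 1 was found for 28, 34, 37, 19 and 31 genes, which is 54.9%, 66.7%, 72.5%, 37.3% and 60.8%, against 25.8%, 27.9%, 36.9%, 21.3% and 42.2% of all genes. Their share of all distal sites was 0.559%, 0.655%, 0.496%, 0.385% and 0.345%, while they are 0.234% of the genes. A gene with more sequence around its starts can collect more sites. The sequence nearest to the starts of a guidance gene, within the same limits, had a median length of 72.8 kb, against 45.5 kb over all genes. Per Mb of such sequence the guidance genes had 8.91, 12.6, 15.0, 4.72 and 14.2 distal sites from MES to MAC, against 5.83, 7.03, 11.1, 4.49 and 15.0 for all genes. By that measure they were denser in MES, HB and HE, and close to all genes in HP and MAC. The median width of their distal sites equalled that of all distal sites at every stage (500, 700, 1000, 600 and 500 bp).

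**Figure D3:**
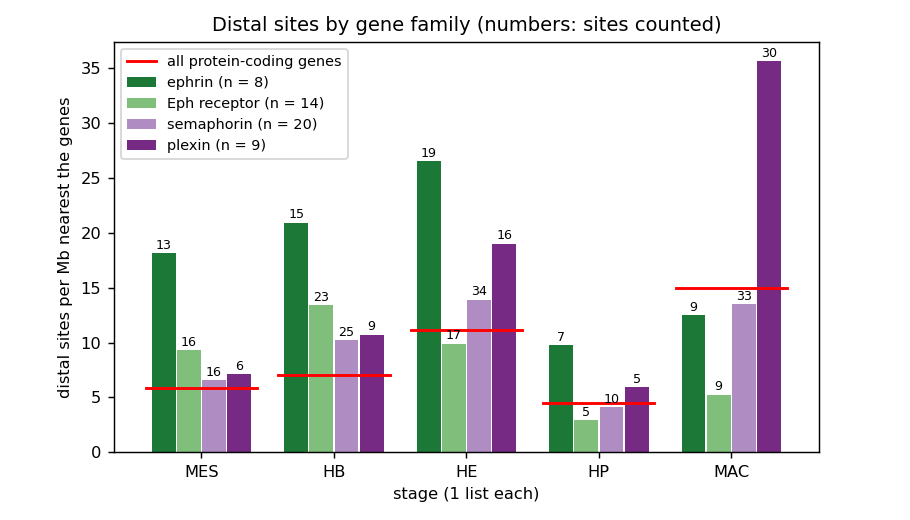
Distal DNaseI sites per Mb of sequence nearest to the starts of the genes (vertical axis) for each family at each stage, with the number of sites above each bar and red lines for all protein-coding genes. Plexins reach 35.6 per Mb in MAC (30 sites), above the line at 15.0, while Eph receptors stand at 5.24 (9 sites).

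The families moved apart in MAC. Plexins had 6, 9, 16, 5 and 30 distal sites from MES to MAC, or 7.11, 10.7, 19.0, 5.93 and 35.6 per Mb. Eph receptors had 16, 23, 17, 5 and 9, or 9.31, 13.4, 9.89, 2.91 and 5.24 per Mb. Ephrins had 13, 15, 19, 7 and 9, or 18.1, 20.9, 26.5, 9.75 and 12.5 per Mb. Semaphorins had 16, 25, 34, 10 and 33, or 6.55, 10.2, 13.9, 4.10 and 13.5 per Mb. Semaphorins and plexins together held 43.1% of the distal sites of guidance genes in MES and 77.8% in MAC. Of the 30 plexin sites in MAC, 11 belonged to Plxnc1, 6 to Plxnd1, 5 to Plxna2 and 4 to Plxna1. With lists cut to equal length plexins had 6, 5, 6, 5 and 13, or 15.4 per Mb in MAC against 5.64 for all genes, and Eph receptors 14, 14, 7, 5 and 4. Ephrins then had 8, 8, 5, 7 and 2 and semaphorins 10, 13, 12, 10 and 9. Sites of 1 gene are neighbours on the chromosome and are not independent counts, and Efna1, Efna3 and Efna4 lie next to each other on chromosome 3.

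Plxnc1 (start at chromosome 10, position 94944845) had 0, 2, 5, 2 and 11 distal sites from MES to MAC. With lists cut to equal length it had 0, 2, 3, 2 and 5. In the lists as deposited, no other guidance gene had as many as 11 at any stage. In MES the nearest site to Plxnc1 lay 255 kb away. The MAC sites were narrow, from 100 to 900 bp with a median of 400 bp, and 5 of them reached the median width of the MAC list. They lay from -22.2 kb to 35.4 kb from the start, 8 of them inside the gene. Of 16 merged distal regions at Plxnc1, 9 were listed in MAC only and 3 in HE only. The region at 12.7 kb was shared by HE, HP and MAC, and that at 21.2 kb by HE and MAC. Plxnc1 thus had its only promoter site in HE and most of its distal sites in MAC, where no promoter site was listed and the nearest site lay 5.67 kb away.

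Plxnd1 had 2, 1, 2, 2 and 6 distal sites, and 4 of its 8 regions were listed in MAC only. One region at 3.30 kb was shared by MES, HE and MAC. Plxna2 had 2, 2, 3, 0 and 5, all of those in HE and MAC inside the gene, from 26.3 to 68.2 kb. The pair of regions at -8.97 and 7.97 kb of Plxna2 was listed in MES and HB and not later. Plxna1 had 0, 0, 3, 0 and 4, all of them in introns of the neighbouring gene Chchd6, so their link to Plxna1 rests on distance alone. Plxna3 and Plxnb3 had no distal site at any stage.

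Efnb2 had 2, 1, 5, 2 and 1 distal sites, with those in HE at 23.2, 37.6, 44.1, 53.1 and 70.7 kb from the nearest start. The regions at 23.3 and 53.0 kb were shared by HE and HP, and that at 37.7 kb by MES, HB and HE. With lists cut to equal length Efnb2 had 1, 1, 1, 2 and 0. In MAC the only distal site of Efnb2 lay at another place, at -2.91 kb in an intron. Epha2 had 4, 5, 5, 2 and 1, or 4, 4, 2, 2 and 0 with lists of equal length. Its region at -13.9 kb was listed at all 5 stages, and those at -26.3, -9.40 and -5.26 kb in MES and HB only. In MAC the -13.9 kb region held a site of 300 bp, against 1300 bp in HB and 1400 bp in HE. Ephb4 had 1 distal site, in HE, at 26.1 kb. Efna4 had 3, 4, 2, 2 and 0, Efna5 2, 2, 3, 2 and 2, and Efnb1 3, 4, 2, 0 and 0. Ephb2, which had no promoter site, had 2, 4, 3, 1 and 0 distal sites, and Ephb3 had 2, 3, 4, 0 and 2.

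**Figure D4:**
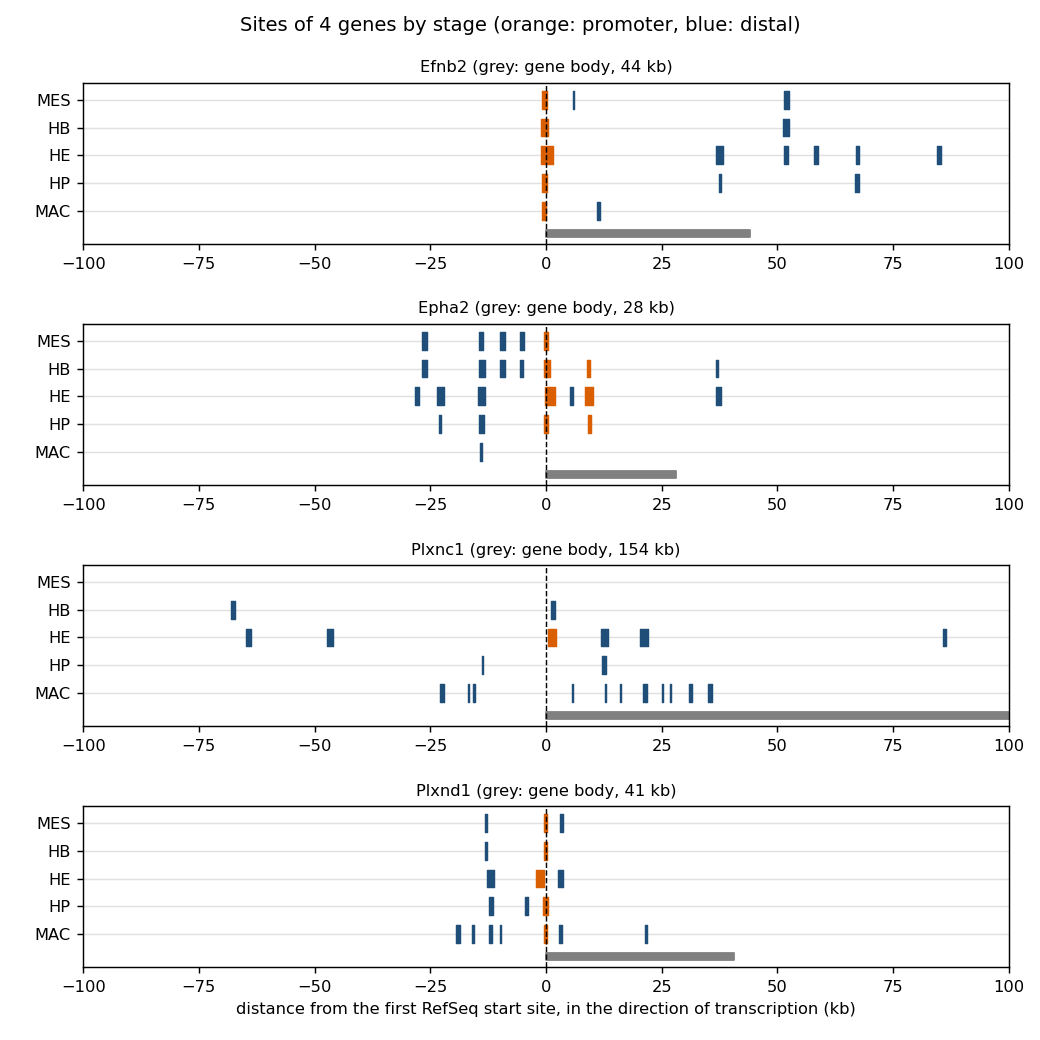
Positions of promoter sites (orange) and distal sites (blue) of Efnb2, Epha2, Plxnc1 and Plxnd1 at each stage, with the gene body in grey. Distances in kb run in the direction of transcription from the most upstream start of a curated RefSeq mRNA. Plxnc1 has 11 distal sites in MAC and none in MES, whereas Efnb2 has 5 in HE and Epha2 has 5 in HB and 5 in HE, which with lists of equal length become 5 for Plxnc1, 1 for Efnb2, and 4 and 2 for Epha2.

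Among semaphorins, Sema3f had 3, 4, 6, 1 and 2 distal sites and a region at -28.1 kb listed at all stages. Sema4b, the gene with the most distal sites in HP, had 2, 3, 3, 3 and 6, with 4 of its 9 regions in MAC only. With lists of equal length Sema3f had 3, 3, 3, 1 and 1, Sema4b 2, 0, 0, 3 and 4, and Sema4d 0, 0, 1, 0 and 1. Sema4d had 0, 4, 2, 0 and 5, and each of the 5 MAC sites was within the gene. Sema4a had 2, 1, 1, 1 and 4. Its region at -6.18 kb was listed at every stage, while 3 further regions were listed in MAC only. Its 4 MAC sites were 200 to 500 bp wide, and with lists cut to equal length the gene had 1, 0, 0, 1 and 0. Sema6a had 1, 4, 4, 1 and 0, and Sema3e 2, 1, 4, 1 and 0. Sema6d had 1, 2, 2, 0 and 3, and Sema3g 2, 0, 2, 0 and 1. Sema3a and Sema3c, in contrast, had at most 1 at any stage, and so did Sema7a.

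Sites of the 5 lists were set to windows of 500 bp around their middle and merged where windows overlapped by at least 25% of their length, which gave 200 distal regions at guidance genes and 44413 at all genes. In introns lay 104 of the 200, 88 were intergenic, 7 were in untranslated exons and 1 was in a coding exon. Regions in MES, HB or HE and in neither HP nor MAC numbered 102 (51.0%, interval 44.1 to 57.8), against 38.4% of all distal regions. Regions in MAC only numbered 55 (27.5%, interval 21.8 to 34.1), against 38.7%. Regions in HE only numbered 37 (18.5%, interval 13.7 to 24.5), against 18.1%, and those in HB only 23 (11.5%, interval 7.79 to 16.7), where all genes had 6.19%. Regions in all 5 stages numbered 6 (3.00%, interval 1.38 to 6.39), against 3.17%. They were those of Efna2 at 20.2 kb, Epha2 at -13.9 kb, Sema3b at -3.53 kb, Sema3f at -28.1 kb, Sema4a at -6.18 kb and Sema4b at 5.55 kb. These are shares of each set's own regions, so a larger early share lowers the MAC-only share, and the latter does not show fewer MAC regions per gene. Many regions lie at the same gene, with 16 at Plxnc1, 9 of them in MAC only. They are not independent, so the intervals are too narrow.

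**Figure D5:**
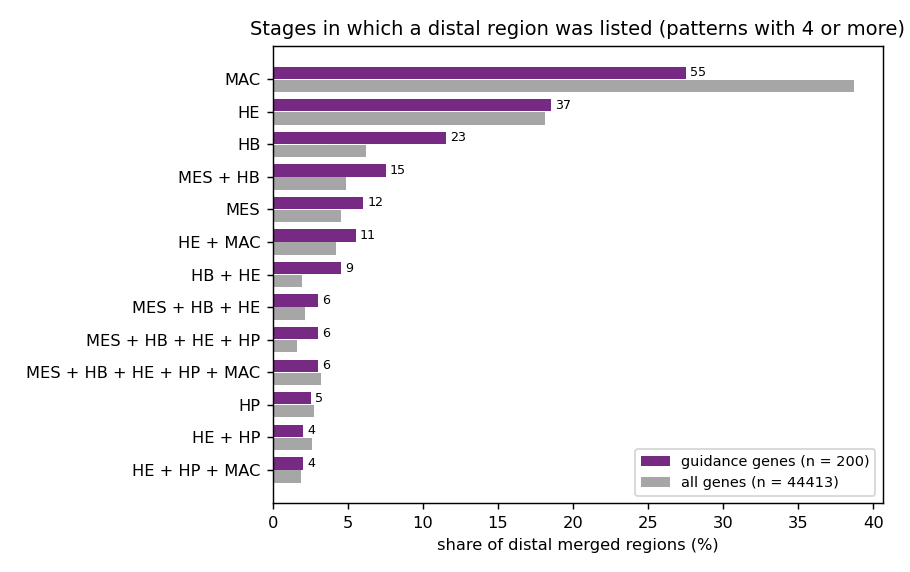
Share of distal merged regions (%, horizontal axis) with each pattern of stages, for guidance genes (purple, with counts) and all protein-coding genes (grey). MAC only is the most frequent pattern in both, at 27.5% and 38.7%, and HB only reaches 11.5% at guidance genes against 6.19%.

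In the middle 500 bp of each distal region, either strand was searched for 10 short patterns named after the factors known to bind such letters. GATA stood for AGATAA and RUNX for TGTGGT. TEAD stood for CATTCC, ETS for CGGAAG and PU.1 for GAGGAAG. AP1 stood for TGANTCA and SOX for ATTGTT. The E-box stood for CAGCTG, CEBP for TTGCGCAA and TCF for CTTTGA. The ETS and PU.1 patterns share the letters GGAAG but differ in the letter before them, so a match is not counted for both. Over the 200 regions all 10 shares lay within 10 percentage points of those of all distal regions of the same length: GATA 26.5% against 26.5%, RUNX 30.5% against 37.5%, TEAD 31.5% against 28.9%, PU.1 33.5% against 28.4% and AP1 19.0% against 26.9%, for example. In the 55 MAC-only regions, PU.1 was matched in 26 (47.3%), against 34.9% of all MAC-only regions, and the E-box in 22 (40.0%), against 29.6%. The other 8 shares there lay within 10 points, with RUNX at 40.0% against 41.5%. In the 37 HE-only regions, RUNX was matched in 5 (13.5%), against 34.4%, and SOX in 6 (16.2%), against 27.5%. In the 23 HB-only regions, RUNX was matched in 5 (21.7%), against 32.9%. Gaps of over 10 points went both ways in smaller sets: the E-box was matched in 7 of 12 MES-only regions (58.3% against 32.7%) but in 2 of 15 regions of MES and HB (13.3% against 37.0%), where TEAD (13.3% against 33.5%), AP1 (0 of 15, against 14.5%) and TCF (26.7% against 37.3%) were lower too. GATA matches were as frequent as elsewhere in HB-only (39.1% against 40.8%) and HE-only regions (35.1% against 33.3%). These are counts of letters in a few regions, with no test, and a match is not a bound site. The sequences shown above were picked in part by their matches. Among them the Efnb2 region held 1 match each to TEAD, PU.1 and SOX. The Plxnc1 region at 25.2 kb held 1 each to ETS and AP1, and that at -16.5 kb 1 each to RUNX, PU.1 and the E-box. The Plxnd1 region held PU.1 and SOX matches, the Epha2 region GATA, AP1 and TCF matches, and the Ephb2 region E-box and TCF matches.

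Partners of the guidance genes were counted from lists chosen by function. Of 12 coreceptors and partners, 5, 8, 6, 4 and 4 had a promoter site from MES to MAC, which is 41.7%, 66.7%, 50.0%, 33.3% and 33.3% against 55.5%, 57.1%, 59.8%, 48.6% and 48.7% of all genes. Nrp1, which with plexins forms the receptor of class 3 semaphorins, was listed at every stage and had 1, 2, 8, 1 and 9 distal sites. Nrp2 was listed in HB, HE and MAC and had 4, 8, 7, 3 and 4 distal sites. Of 33 genes that carry the signal inside the cell, 28, 30, 31, 25 and 23 had a promoter site. Rhoa, Rac1 and Rras, the small GTPases on which plexins act or depend, were listed throughout. Tiam1, which activates Rac1, had 1, 1, 14, 5 and 12 distal sites. Of 20 genes of other guidance systems (netrins, Slits, their receptors and related factors), 12, 13, 17, 6 and 3 had a promoter site, and the 3 in MAC were Neo1, Unc5b and Rgmb. Robo4, a receptor of vessels, and Dcc, Robo3 and Slit1 were listed in HE only. From HE to MAC the share went from 85.0% to 15.0% for the other guidance systems, from 93.9% to 69.7% for the signalling genes, and from 50.0% to 33.3% for the coreceptors, while that of all genes went from 59.8% to 48.7%.

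Marker genes were listed at the stage they were taken for, with 1 exception, but several were listed at other stages too. The 3 genes taken for MES were T, Mesp1 and Pou5f1, of which Pou5f1 is a pluripotency factor of ES cells and does not mark mesoderm. All 3 had promoter sites in MES, and 2, 1, 0 and 0 of them from HB to MAC. All of Kdr, T and Tal1 had one in HB, and Kdr kept it at every stage, while all of Tek, Kit, Cdh5, Pecam1 and Sox17 had one in HE and 0 of these 5 had one in MAC. Of the HP markers Itga2b, Runx1 and Spi1 had one in HP, and Gfi1b, listed in MAC only, did not. Runx1 was listed at every stage and Kit from MES to HP. All of Itgam, Csf1r, Ptprc, Cd68 and Adgre1 had one in MAC, and Cd68 alone of these had one earlier. Of 7 markers of other cells that such cultures can hold, 3, 5, 4, 3 and 1 had a promoter site from MES to MAC. Sox1, a neural gene, was listed from MES to HP, Foxa2 of endoderm from MES to HE, and Myog and Hba-a1 at no stage. Pax6, listed from HB to MAC, was the 1 in MAC, and Sox17, counted above as an HE marker, was 1 of the 4 in HE. The count of these markers, like that of the guidance genes, was lower in MAC (1) than in HE (4), and their part in the result was not tested.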

How the data were processed

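DNaseI-seq was carried out by the authors on sorted cells of each stage, and fragments of 50 to 300 bp were sequenced. Per the methods and the processing notes, reads were trimmed (CutAdapt) and aligned to mm10 (Bowtie). Only unique alignments were kept, Picard marked duplicates for removal, and DFilter, working in 100 bp bins, called the sites. HOMER is named too, and versions were not stated. The label of the MAC list names both replicates together, and how they were combined was not given in the sources used here.

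The deposited files give start and end positions in base pairs, and no score or signal. The study tabulates aligned reads elsewhere, which were not used here, so depth was not taken into account. Starts came from RefSeq on GRCm38.p6 (58509 distinct starts of protein-coding genes, 189 of them of the guidance genes). Sites were given to genes, merged and counted with Python 3.11.15, numpy 2.4.6, statsmodels 0.14.6 and pysam 0.24.0. Figures were drawn with matplotlib 3.10.9. The procedure was tested on simulated data, where 1200 of 1200 planted sites and 358 of 358 merged regions were recovered. Alternatives were curated starts, promoter limits of 250 bp and 2 kb, the middle of each site, sites at or above the median width, the widest sites of each list, as many as HP had, a distal limit of 50 kb, nearest gene bodies and other merging. All counts are descriptions without tests, and Wilson 95% intervals cover counting error only. The genes and the lists of partners and markers were chosen with earlier results of these data known. Named genes were fixed ligands and receptors of vessels and blood, the 3 genes with most distal sites per stage, and genes listed in all, 1 or no stages. Expression and histone marks were not analysed here.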

Additional observations from a re-analysis of the deposited data

How the results depend on the processing

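With 1 list per stage, the order of the stages rests on lists of unequal length and width, with depth not taken into account. The limit of 1 kb decides several calls at HE, and distal sites were given to genes by distance alone. No paired analysis was possible because each stage has 1 list, with no numbered replicates to pair. Under other settings 72 values stayed within 1.5 times the value reported and 32 did not.

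When sites narrower than the median of their list were left out, promoter counts became 21 in MES and 13 in HP, distal sites 15, 24, 31, 7 and 32 from MES to MAC, promoters in all 5 stages 6, in no stage 8, and gains from HE to HP 3. Losses from HE to HP were then 22. Distal regions became 82, with 17 in HE only, 26 in MAC only, 3 in HP only (5 reported) and 1 in all 5 stages. By this setting 41.2%, 54.9%, 62.7%, 25.5% and 23.5% of guidance genes had a promoter site from MES to MAC, against 42.9%, 48.1%, 51.9%, 37.7% and 40.1% of all genes. The difference in MES was thus not kept, those in HB and HE were smaller, and one in HP appeared.

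With the widest sites of every list up to the number in HP, the MAC promoter count became 10, distal sites 40 in HB, 30 in HE and 28 in MAC (38 in MES and 27 in HP), losses from HE to HP 11, gains 4, promoters in all 5 stages 8 and in no stage 7. Distal regions became 106, with 14 in HE only, 19 in MAC only, 9 in HP only and 1 in all 5 stages. Guidance genes with a promoter site were then 60.8%, 68.6%, 62.7%, 49.0% and 19.6% from MES to MAC, against 52.6%, 52.5%, 51.7%, 48.6% and 38.6% of all genes, so HB and not HE was highest for promoters and for distal sites.

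With a promoter limit of 250 bp, 1 gene gained a site from HE to HP and 6 genes had none at any stage, as many as with the middle of the site. With deposited intervals merged, 3 regions were in HP only. The lower share in MAC held under every setting for promoters.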
